A study of Mus musculus with 16 samples.

Results

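Cathepsin, vacuolar proton pump and LAMP genes were followed by guide in B16F10 mouse melanoma, in culture and in tumours. Members were all gene symbols that begin with Cts plus 1 letter or digit, with Atp6v or with Atp6ap, together with Lamp1 and Lamp2, where the mean over a table's libraries reached 10 normalised counts. Of 15653 genes listed in any of the 3 deposited tables, 35 were members: 11 cathepsins, 10 genes of the V0 sector, 10 of the V1 sector, 2 pump accessory genes and the 2 LAMP genes. In TDMa tumours 35 were tested, in TDMa culture 29 and in TDM culture 29. Ctsh, Ctsk, Ctss, Ctsw and Atp6v0d2 were listed in the tumour table and not in the culture tables. Atp6v1c2 was not listed in TDM culture and was listed in TDMa culture below the minimum, at a mean normalised count of 4.75 ± 1.23 with sgNlrc5 and 8.57 ± 5.36 with sgScramble (SD, n = 2 each). The pseudogene Atp6v0c-ps2, counted among the V0 genes by its symbol, shares near-identical sequence with Atp6v0c, so the split of reads between them is uncertain.

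The groups were TDMa tumours with sgNlrc5 (4 libraries) and with sgScramble (4), cultured TDMa cells with sgNlrc5 (2) and with sgScramble (2), and cultured TDM cells with sgNlrc5 (2) and with sgScramble (2). B16F10 is a pigmented melanoma line of C57BL/6 mice, and both derived lines, B16F10-TDM and B16F10-TDMa, carried a guide RNA, aimed at Nlrc5 in the tested cells and at no stated target in the controls. The labels do not give the meaning of the line names, the enzyme the guides act with, the number of clones, the age or strain of the tumour hosts, or whether replicates were separate cultures or animals. The p-values therefore measure the spread between these libraries, which may be technical. The Nlrc5 protein switches on genes of MHC class I. The guides were compared for differences in other genes, and whether Nlrc5 itself causes those differences was not tested. All 12 melanocyte markers looked at, such as Sox10 and Pmel, were present and tested in each table. Tyr was low in TDM culture, at 17.3 normalised counts with sgNlrc5 and 7.24 with sgScramble.

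Cathepsins are proteases that digest proteins in lysosomes, and most are cysteine proteases that work best in acid. The acid is made by the vacuolar proton pump: its V1 sector splits ATP on the cytosolic side, and its V0 sector carries protons through the membrane. Accessory proteins help the pump assemble, and LAMP proteins line the lysosomal membrane. In pigment cells the same pump serves melanosomes, and in macrophages and dendritic cells cathepsins also process antigens for MHC class II. Many lysosomal genes share a short promoter element bound by the MiT/TFE factors, of which Mitf is the pigment cell member and Tfeb and Tfe3 are close relatives.

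Per library, between 12183889 and 16390886 reads were recovered over listed genes. Nlrc5 (ENSMUSG00000074151), the check of the labels, averaged 3916 ± 445 normalised counts in sgNlrc5 tumours and 577 ± 243 in sgScramble tumours (SD, n = 4 each). In TDMa culture it averaged 3144 ± 2.71 with sgNlrc5 and 248 ± 8.42 with sgScramble, and in TDM culture 68.0 ± 15.0 with sgNlrc5 and 17.8 ± 7.22 with sgScramble (n = 2 each). Its TDM call (log2 1.91 ± 0.34, limma adjusted p = 0.012) ended without sgNlrc5 replicate 2 (1.69, limma adjusted p = 0.087) and without the intensity trend (limma adjusted p = 0.38). Within the sgNlrc5 tumours, libraries 1 and 2 resembled each other more than libraries 3 and 4, with a chi-square per gene of 19.6 for the pair 1 and 2, 9.33 for the pair 3 and 4, and 30.4 to 49.1 for pairs across. Tumour results that changed when either pair was left out are given with that change. The share of all genes whose guides do not overlap was not computed for any group of libraries. In these bulk libraries, fewer cells of a type and less RNA per cell cannot be told apart.

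Promoter windows were looked at because so many members moved together in tumours. RefSeq windows (GRCm38.p6, an earlier build than the GRCm39 and mm39 named by the submitters) ran from 250 bases before to 50 after each start, and 25 of 35 members matched, with 29 windows. The core of the MiT/TFE element, the 7 letters TCACGTG on either strand, was in 7 of 29 member windows (24.1%) and in 1237 of 32851 windows of all genes (3.77%). The wider E-box CACGTG, which the core contains, was in 8 of 29 member windows (27.6%), against 7.15% of all windows. The M-box TCATGTG was in 3 of 29 (10.3%), against 3.77%, in windows of Atp6v0c, Ctsa and Ctss. By role, genes with the core were 2 of 8 matched cathepsins, 3 of 7 V0 genes, 1 of 6 V1 genes, 0 of 2 accessory genes and 1 of 2 LAMP genes. A match describes letters and is not a site or a cause. The stretches that hold the core are shown for comparison with the gene values given later, 5′ to 3′ on the gene's strand with each match in capitals. Where 8 capitals stand together, TCACGTGA reads the same on both strands and was counted as 1 match. The second stretches of Lamp1 and Ctsa begin with the last bases of the match before them, so Lamp1 has 4 matches in all and Ctsa 2.
Lamp1, chr8:13159087-13159122, plus strand: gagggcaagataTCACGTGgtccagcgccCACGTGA
Lamp1, chr8:13159121-13159151, plus strand: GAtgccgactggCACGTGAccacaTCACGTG
Atp6v0b, chr4:117887342-117887378, minus strand: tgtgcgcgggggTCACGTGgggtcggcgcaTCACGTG
Atp6v0e, chr17:26676386-26676405, plus strand: ttagcgcgccgaTCACGTGA
Atp6v0d1, chr8:105566061-105566080, minus strand: gccctactgcggTCACGTGA
Atp6v1a, chr16:44139372-44139403, minus strand: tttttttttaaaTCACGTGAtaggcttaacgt
Ctsa, chr2:164833748-164833772, plus strand: atgagcaaactgTCACGTGAtgcag
Ctsa, chr2:164833765-164833784, plus strand: TGAtgcagatgcTCACGTGA
The 250 bases before the start are shown whole for Ctsd, the cathepsin with 2 matches there, and for Ctss, which has none and had the largest tumour change among members.
Ctsd, chr7:142387828-142388077, minus strand: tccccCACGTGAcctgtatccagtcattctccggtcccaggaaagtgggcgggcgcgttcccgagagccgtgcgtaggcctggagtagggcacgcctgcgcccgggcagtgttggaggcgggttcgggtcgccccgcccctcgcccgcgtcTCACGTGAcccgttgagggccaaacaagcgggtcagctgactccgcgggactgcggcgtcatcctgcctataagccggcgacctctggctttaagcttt
Ctss, chr3:95526536-95526785, plus strand: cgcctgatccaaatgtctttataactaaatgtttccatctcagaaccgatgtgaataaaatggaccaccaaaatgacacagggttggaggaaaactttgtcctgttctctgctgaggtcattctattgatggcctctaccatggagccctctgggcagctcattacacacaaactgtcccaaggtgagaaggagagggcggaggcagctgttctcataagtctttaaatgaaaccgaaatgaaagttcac

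In TDMa tumours, 10 of 11 cathepsin genes rose with sgNlrc5 and 0 fell, by log2 0.59 to 2.14. The largest rises were of Ctss, Ctsh and Ctsk, which were not listed in cultured cells. Over all genes tested in tumours, 19.7% were called higher and 19.7% lower (limma, Benjamini-Hochberg adjusted p under 0.05), with a median log2 change of -0.010, against a median of 1.13 for the 11 cathepsins. Together the cathepsins took 0.568% to 0.635% of recovered reads in sgNlrc5 tumours, against 0.309% to 0.351% in sgScramble tumours. Beside this, 14 of 14 macrophage markers rose, and their summed level was 16097 to 22153 normalised counts in sgNlrc5 tumours and 4698 to 7509 in sgScramble tumours. All 10 T cell markers rose, with a summed level of 314 to 1225 in sgNlrc5 tumours and 64.0 to 88.5 in sgScramble tumours. Among them Cd3d, Cd3g and Trac averaged 6.45, 9.47 and 6.33 normalised counts in sgScramble tumours, and the cytotoxic marker Klrd1 7.65. Such genes reached the minimum mean of 10 only through the sgNlrc5 libraries, so the counts of rises are partly set by that filter. Of 6 tested NK and cytotoxic markers 5 rose, with Klrb1c and Ncr1 not listed, while the 6 mast cell markers were not listed and 0 of 4 tested endothelial markers were called. Of the other markers 1 of 4 tested dendritic, 1 of 1 neutrophil and 0 of 1 B cell genes rose, and of 5 fibroblast genes 2 rose and 1 fell. The part of these cells in the cathepsin changes was not tested.

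**Figure D1:**
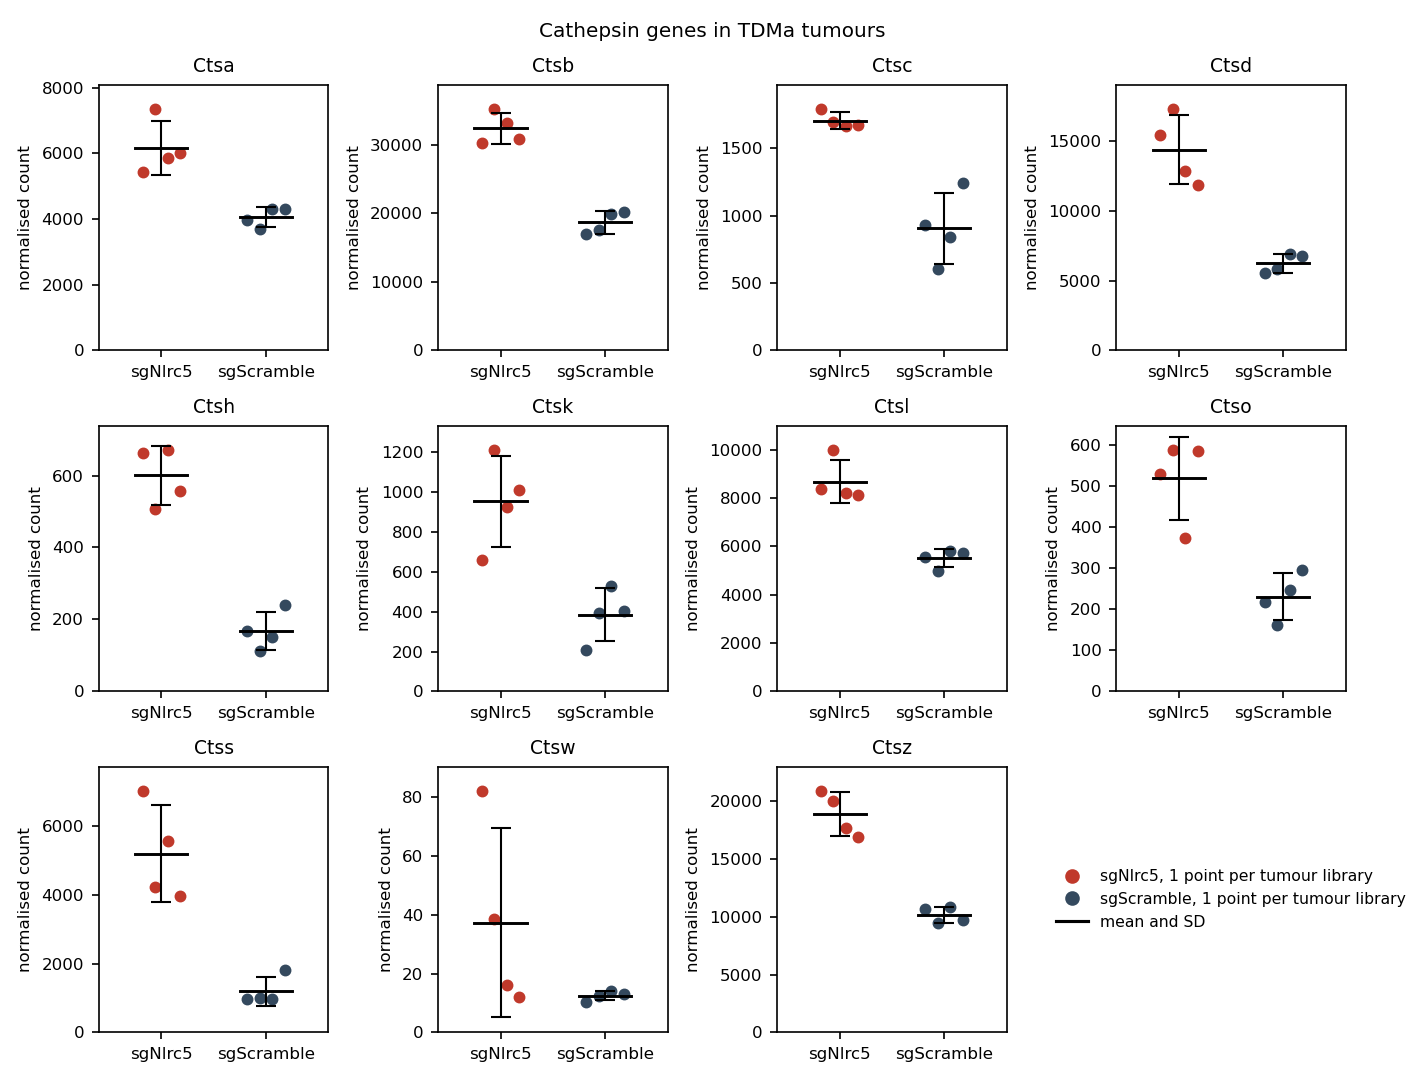
Normalised counts of the 11 cathepsin genes in TDMa tumours, 1 panel per gene with its own axis from 0; each point is 1 library (4 with sgNlrc5, 4 with sgScramble) and bars give the mean and SD. The groups do not overlap in 10 panels, while Ctsw overlaps, with 2 sgNlrc5 libraries at 82.2 and 38.6 and the others at 16.3 and 12.1. The share of all genes without overlap was not computed, so this count has no background to be read against.

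Ctss encodes cathepsin S, which trims the invariant chain of MHC class II in antigen-presenting cells. It had 7019, 4217, 5544 and 3969 normalised counts in the sgNlrc5 tumours (replicates 1 to 4), against 978, 988, 974 and 1823 in the sgScramble tumours (ENSMUSG00000038642). Every sgNlrc5 library lay above every sgScramble library, and the change was log2 2.14 ± 0.22 (SE, limma adjusted p = 4.2e-05). Ctsh (ENSMUSG00000032359), an aminopeptidase of lysosomes, had 664, 507, 672 and 558 normalised counts in sgNlrc5 tumours and 169, 112, 151 and 239 in sgScramble tumours. The groups were apart, by log2 1.88 ± 0.20 (limma adjusted p = 4.6e-05). Ctsk (ENSMUSG00000028111), the collagen-cutting protease of osteoclasts, had 661, 1214, 928 and 1014 normalised counts in sgNlrc5 tumours and 208, 394, 531 and 405 in sgScramble tumours. Its lowest sgNlrc5 library was above its highest sgScramble library, and it rose by log2 1.35 ± 0.25 (limma adjusted p = 0.0016). Ctsw, a cathepsin of cytotoxic lymphocytes, had 82.2, 38.6, 16.3 and 12.1 normalised counts in sgNlrc5 tumours and 10.3, 12.4, 13.9 and 13.2 in sgScramble tumours (ENSMUSG00000024910). The groups overlapped, and its log2 1.13 ± 0.51 did not pass (limma adjusted p = 0.095). It passed without sgNlrc5 replicate 4 (1.52, limma adjusted p = 0.030) and with sgNlrc5 libraries 3 and 4 left out (2.10, limma adjusted p = 0.0030). The T cell sum in the same sgNlrc5 libraries 1 to 4 was 1225, 660, 314 and 489 normalised counts, and its part in the Ctsw values was not tested.

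The 7 cathepsins also listed in culture all rose in tumours. Ctsd (ENSMUSG00000007891), the aspartic protease cathepsin D, had 15496, 17353, 12864 and 11896 normalised counts in sgNlrc5 tumours, against 5550.3, 5826, 6891 and 6807 in sgScramble tumours. The lowest sgNlrc5 value was well above the highest sgScramble value, with a rise of log2 1.19 ± 0.13 (limma adjusted p = 6.1e-05). Ctso (ENSMUSG00000028015), a low-abundance cysteine cathepsin, had 529, 588, 373 and 584 normalised counts in sgNlrc5 tumours and 218, 160.4, 248 and 296 in sgScramble tumours. It rose by log2 1.18 ± 0.19 (limma adjusted p = 0.00072), with the groups apart. Ctsc (ENSMUSG00000030560), the dipeptidyl peptidase that activates granzymes, had 1794, 1696, 1663 and 1672 normalised counts in sgNlrc5 tumours and 934, 607, 843 and 1242 in sgScramble tumours. The sgNlrc5 libraries lay close together and above all sgScramble libraries, by log2 0.96 ± 0.17 (limma adjusted p = 0.0011). Ctsz (ENSMUSG00000016256), a carboxypeptidase, had 20925, 19993, 17729 and 16875 normalised counts in sgNlrc5 tumours, against 10659, 9455, 10847 and 9729.9 in sgScramble tumours. The groups were apart, by log2 0.89 ± 0.10 (limma adjusted p = 0.00010).

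Ctsb, Ctsl and Ctsa had the smallest log2 rises among the called cathepsins. Ctsb (ENSMUSG00000021939), an abundant endopeptidase, had 30251, 35246, 33226 and 30829.5 normalised counts in sgNlrc5 tumours and 16993, 17553, 19953 and 20154 in sgScramble tumours, a rise of log2 0.80 ± 0.11 (limma adjusted p = 0.00032). Ctsl (ENSMUSG00000021477), the endopeptidase cathepsin L, had 8356, 9999, 8198 and 8128 normalised counts in sgNlrc5 tumours and 5556, 4975, 5803 and 5718 in sgScramble tumours. Its groups were apart, by log2 0.65 ± 0.096 (limma adjusted p = 0.00040). Ctsa (ENSMUSG00000017760), the carboxypeptidase that protects lysosomal neuraminidase and galactosidase, had 5437, 7356, 5868 and 5996 normalised counts in sgNlrc5 tumours and 3967, 3682, 4316 and 4309 in sgScramble tumours. It rose by log2 0.59 ± 0.10 (limma adjusted p = 0.0011), again with no overlap. With sgNlrc5 libraries 1 and 2 left out 10 cathepsins were called, and with libraries 3 and 4 left out 11 were. Ctsd and Ctsa hold the promoter core and Ctss does not, as shown with the windows.

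Genes of the V0 membrane sector also rose in tumours, 6 of 10 called higher and 0 lower, beside 19.7% of all genes each way. Their median log2 change was 0.56, and 0.53 over the 9 genes without the pseudogene Atp6v0c-ps2. Atp6v0c (ENSMUSG00000024121), the proteolipid of the rotor ring, had 9301, 11732, 8778 and 8835 normalised counts in sgNlrc5 tumours and 6275, 6064, 6029 and 5816 in sgScramble tumours. The groups were apart, by log2 0.67 ± 0.10 (limma adjusted p = 0.00054). Atp6v0e (ENSMUSG00000015575), the small e1 subunit, had 3299, 4186, 2379.8 and 2782 normalised counts in sgNlrc5 tumours and 1949, 1884, 2131 and 1961 in sgScramble tumours, a rise of log2 0.64 ± 0.14 (limma adjusted p = 0.0043). Its paralogue Atp6v0e2 rose by 0.53 ± 0.11 (limma adjusted p = 0.0034), with 2320.1 to 3262 normalised counts in sgNlrc5 tumours and 1747 to 2033 in sgScramble tumours. Atp6v0b (ENSMUSG00000033379), a second ring proteolipid, had 4782, 5031, 2945 and 3018 normalised counts in sgNlrc5 tumours and 2405, 2502, 3073 and 2987 in sgScramble tumours. Only sgNlrc5 libraries 1 and 2 lay above the sgScramble range, and its log2 0.49 ± 0.17 (limma adjusted p = 0.043) became 0.13 (limma adjusted p = 0.41) with these 2 left out. Its call also ended without sgNlrc5 replicate 1 or 2 (limma adjusted p = 0.11 and 0.12), without sgScramble replicate 1, 2 or 4 (0.11, 0.097 and 0.051), with quantile normalisation (0.056) and without the intensity trend (0.095).

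The a and d subunits of V0 have isoforms made by different genes, of which Atp6v0a2, Atp6v0d2 and Tcirg1 were called in tumours. Of the a subunits, which guide the pump to its membrane, Atp6v0a2 (ENSMUSG00000038023) had 1326, 1931, 1742 and 1837 normalised counts in sgNlrc5 tumours and 1150.3, 1087, 1162 and 954 in sgScramble tumours. Its groups were apart, with a rise of log2 0.64 ± 0.12 (limma adjusted p = 0.0015). Tcirg1, the a3 isoform of osteoclast and lysosomal pumps, whose symbol lies outside the member rule, averaged 3064 ± 270 normalised counts in sgNlrc5 tumours and 1560 ± 192 in sgScramble tumours (SD, n = 4 each), by log2 0.98 ± 0.10 (limma adjusted p = 4.7e-05). Atp6v0a1, the isoform abundant in neurons, stood at log2 0.22 ± 0.13 (limma adjusted p = 0.19) and passed only with sgNlrc5 libraries 3 and 4 left out (0.42, limma adjusted p = 0.025), while Atp6v0a4, the kidney isoform, stood at 0.037 ± 0.24. Of the d subunits, which join the ring to the stalk, Atp6v0d2 (ENSMUSG00000028238), the isoform of osteoclasts and macrophages, had 222, 183, 157 and 79.4 normalised counts in sgNlrc5 tumours and 55.2, 116, 68.6 and 74.1 in sgScramble tumours. Only 1 sgNlrc5 library fell within the sgScramble range, and the change was log2 0.98 ± 0.31 (limma adjusted p = 0.024). That call ended without sgNlrc5 replicate 1 or 2 (limma adjusted p = 0.065 and 0.071), without sgScramble replicate 1 or 3 (0.070 and 0.058), without the intensity trend (0.054), and with sgNlrc5 libraries 1 and 2 left out (0.56, limma adjusted p = 0.23). The ubiquitous isoform Atp6v0d1 stood at -0.019 ± 0.083 (limma adjusted p = 0.87), with 2358 to 2868 normalised counts in sgNlrc5 tumours and 2578 to 2831 in sgScramble tumours. The pseudogene Atp6v0c-ps2 stood at 0.60 ± 0.26 (limma adjusted p = 0.089) and passed with sgNlrc5 libraries 3 and 4 left out (0.92, limma adjusted p = 0.035). Tcirg1 was also present in culture. In TDMa cells it averaged 1316 normalised counts with sgNlrc5 and 1252 with sgScramble, and in TDM cells 967 with sgNlrc5 and 980 with sgScramble. Neither culture difference was called (limma adjusted p = 0.33 and 0.96).

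Both accessory genes and both LAMP genes rose in tumours, where 19.7% of all genes were called higher. Atp6ap2 (ENSMUSG00000031007), the prorenin receptor, had 4510.4, 4706, 3608 and 3773 normalised counts in sgNlrc5 tumours and 2575, 2312, 2463 and 2475 in sgScramble tumours, by log2 0.75 ± 0.098 (limma adjusted p = 0.00019). Atp6ap1 (ENSMUSG00000019087), the accessory subunit Ac45, had 6019.5, 7215, 5203 and 5626 normalised counts in sgNlrc5 tumours and 3458, 3674, 3939 and 3983 in sgScramble tumours, by log2 0.67 ± 0.11 (limma adjusted p = 0.00058). Lamp2 (ENSMUSG00000016534), which also serves chaperone-mediated autophagy, had 7356, 9085, 6855 and 7892 normalised counts in sgNlrc5 tumours and 5272, 5059, 5446 and 5313 in sgScramble tumours, by log2 0.56 ± 0.096 (limma adjusted p = 0.0010). None of these 3 genes had overlapping groups. Lamp1 (ENSMUSG00000031447) averaged 10860.4 ± 1207 normalised counts in sgNlrc5 tumours and 7482 ± 375 in sgScramble tumours (SD, n = 4 each), by log2 0.53 ± 0.099 (limma adjusted p = 0.0015).

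Of the V1 sector, the cytosolic motor, 1 of 10 genes was called higher and 0 lower, beside 19.7% of all genes each way. The median log2 change was -0.044, against -0.010 for all genes. The catalytic subunit gene Atp6v1a (ENSMUSG00000052459) had 4231, 4566, 4931 and 4918 normalised counts in sgNlrc5 tumours and 4702, 4994, 4794 and 4662 in sgScramble tumours. The ranges overlapped, at log2 -0.041 ± 0.081 (limma adjusted p = 0.72). Its partner in the catalytic head, Atp6v1b2, stood at 0.091 ± 0.086, and the stalk and stator genes Atp6v1c1, Atp6v1d, Atp6v1e1, Atp6v1f and Atp6v1g1 stood between -0.13 and -0.048 with limma adjusted p of 0.20 to 0.69. Atp6v1h (ENSMUSG00000033793), a regulatory subunit of the stator, had 1261, 1452, 1439 and 1374 normalised counts in sgNlrc5 tumours and 1139, 1108, 1007 and 1286 in sgScramble tumours, by log2 0.29 ± 0.091 (limma adjusted p = 0.026). It overlapped by 1 library on each side, and its call ended without the intensity trend (limma adjusted p = 0.053), without sgNlrc5 replicate 2, 3 or 4 (0.065, 0.053 and 0.054), without sgScramble replicate 2 or 3 (0.066 and 0.083) and with sgNlrc5 libraries 3 and 4 left out (0.098). The tissue-limited isoforms Atp6v1c2 and Atp6v1g2, at means of 37.3 and 31.3 normalised counts in sgNlrc5 tumours and 22.5 and 23.0 in sgScramble tumours, stood at 0.76 ± 0.32 and 0.39 ± 0.31 (limma adjusted p = 0.078 and 0.35). Summed over genes, V1 came to 27190 to 28182 normalised counts in sgNlrc5 tumours and 27206 to 29779 in sgScramble tumours. V0 came to 25332 to 36106 in sgNlrc5 tumours and 20473 to 21990 in sgScramble tumours, with the 2 highest sums in sgNlrc5 libraries 1 and 2. The macrophage and T cell sums given above do not overlap between guides either. In sgNlrc5 tumour libraries 1 to 4 the V0 sums were 29181, 36106, 25332 and 26383. The macrophage sums there were 21818, 18647.5, 22153 and 16097, and the melanocyte marker sums 749711, 1040710, 653225 and 733850. The part of any of these marker sums in the pump, accessory and LAMP values was not tested. Of the pump genes whose windows hold the promoter core, Atp6v0b and Atp6v0e were called and Atp6v0d1 and Atp6v1a were not.

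**Figure D2:**
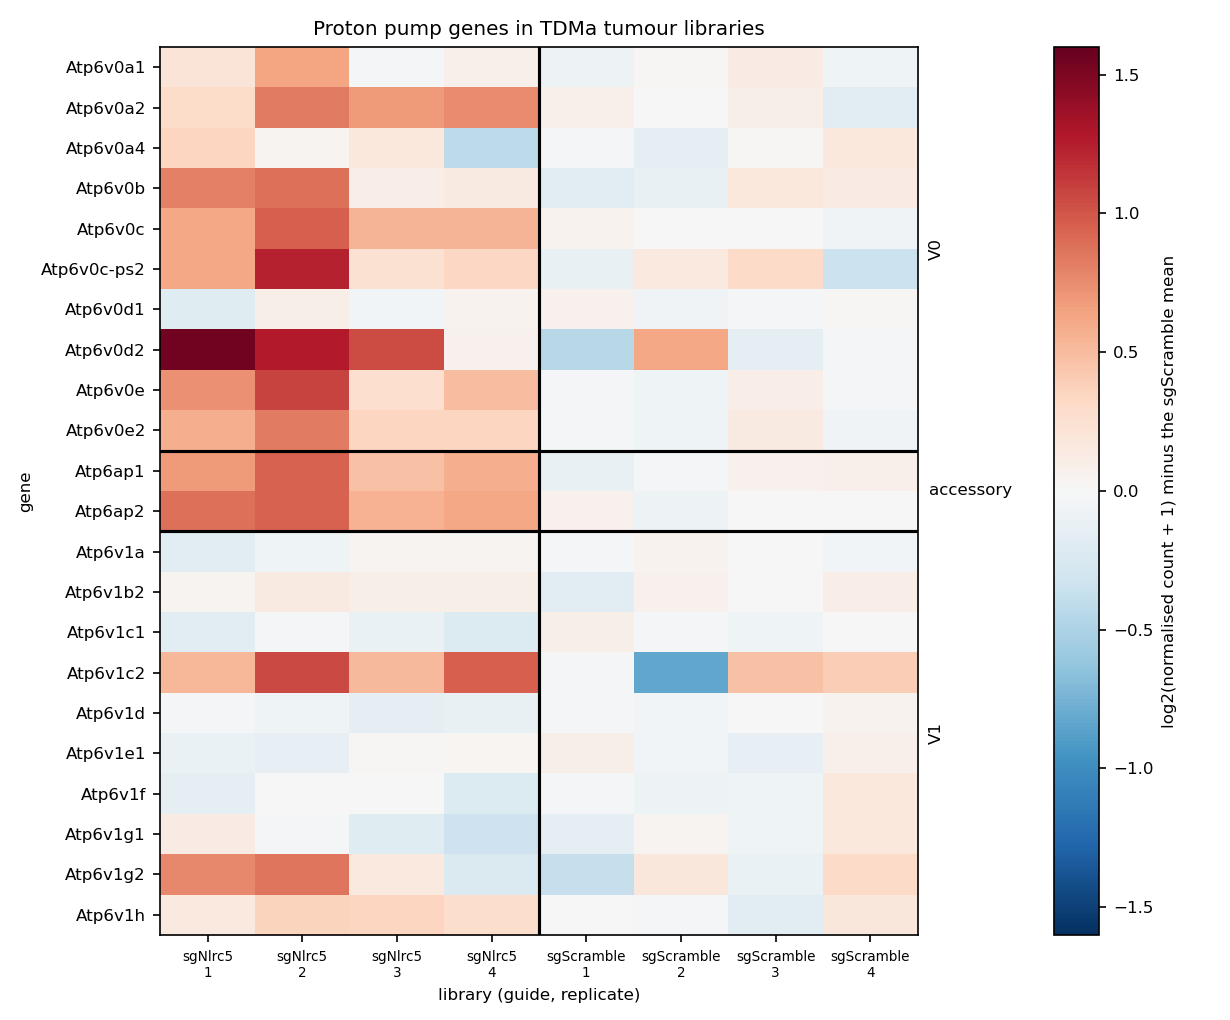
Heat map of pump genes in the 8 TDMa tumour libraries, V0 above, accessory genes in the middle and V1 below; colour is log2(normalised count + 1) minus the mean of the sgScramble libraries, red for higher. In the sgNlrc5 columns most V0 and both accessory genes are red, for most of them strongest in library 2, and V1 genes other than Atp6v1c2, Atp6v1g2 and Atp6v1h are near 0.

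**Figure D3:**
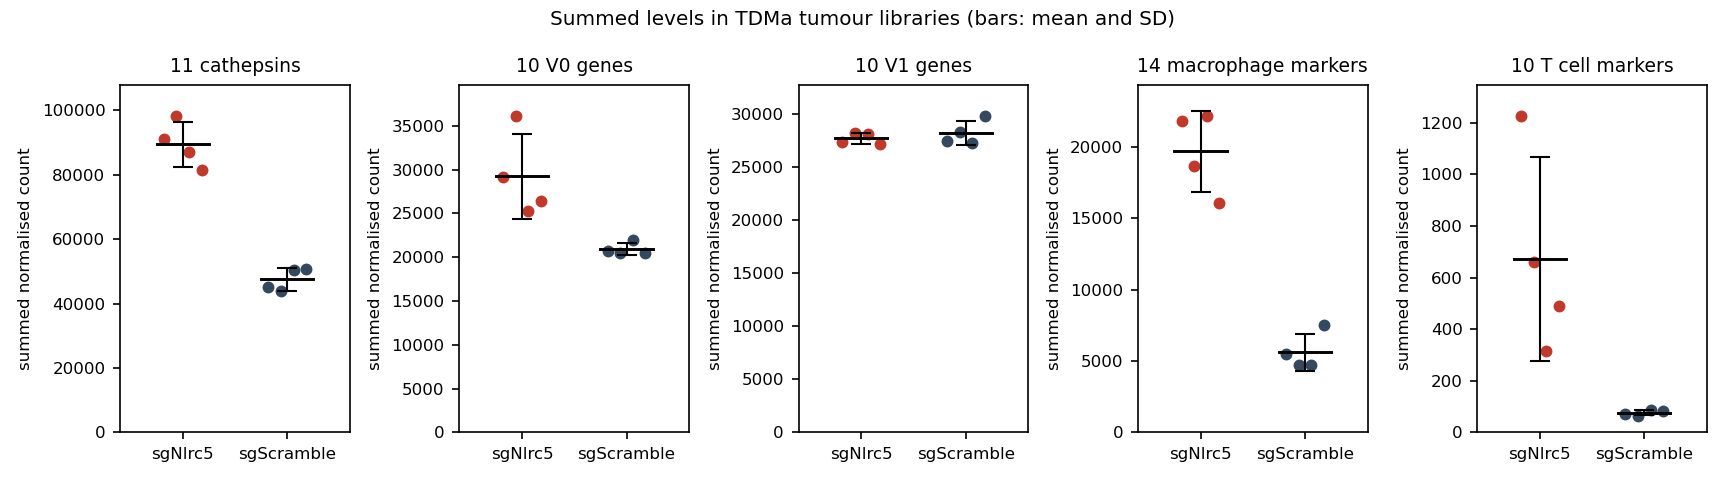
Summed normalised counts per TDMa tumour library (4 points per guide, bars for mean and SD, axes from 0) for cathepsins, V0 genes, V1 genes, macrophage markers and T cell markers. The guides do not overlap for cathepsins, V0, macrophage or T cell sums, and overlap for V1, at 27190 to 28182 with sgNlrc5 and 27206 to 29779 with sgScramble.

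In cultured TDMa cells the changes were small and included V1 genes. Of 29 members tested, 15 were called higher and 5 lower, beside 17.3% of all genes called higher and 16.9% lower (limma adjusted p under 0.05). The members' median log2 change was 0.11 and that of all genes -0.00064. Over all genes 2100 were called higher and 2056 lower, and with each library scaled to the same sum 1643 higher and 2587 lower. These calls depended on the variance model: without the intensity trend 19 of the 20 ended (limma adjusted p 0.052 to 0.26), and Atp6v0e2 alone kept its call under every setting tried. Of the 14 macrophage markers 12 were not listed in TDMa culture, and the other 2 went opposite ways. Cd68 averaged 1046 normalised counts with sgNlrc5 and 730 with sgScramble (log2 0.52 ± 0.064, limma adjusted p = 4.1e-06), and Lyz2 averaged 9.98 with sgNlrc5 and 51.0 with sgScramble (-2.25 ± 0.35, limma adjusted p = 5.5e-05). The 10 T cell markers were not listed.

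Of 7 cathepsins tested in TDMa culture, 4 rose and 1 fell, beside 17.3% of all genes called higher and 16.9% lower. Ctsl had 3394 and 3329 normalised counts with sgNlrc5, against 2789 and 2688 with sgScramble, a rise of log2 0.30 ± 0.039 (limma adjusted p = 8.9e-06). Ctsd had 5156 and 5056 with sgNlrc5 and 4552 and 4745 with sgScramble, by 0.14 ± 0.035 (limma adjusted p = 0.0051). Ctsa had 2109 and 1941 with sgNlrc5 and 1778 and 1842 with sgScramble, by 0.16 ± 0.049 (limma adjusted p = 0.016), and Ctsz had 5013 and 4854 with sgNlrc5 and 4585 and 4529 with sgScramble, by 0.11 ± 0.034 (limma adjusted p = 0.014). In each of these 4 genes both sgNlrc5 libraries lay above both sgScramble libraries. With 2 libraries per guide this is weak support, since many members were also without overlap in TDM culture, where 0 members were called. They were Lamp1, Ctsc, Ctsd, Ctsz, Atp6ap2, Atp6v0a4, Atp6v0c-ps2, Atp6v0e, Atp6v1a, Atp6v1b2, Atp6v1g1 and Atp6v1h. In TDMa culture Ctsc went the other way from the 4 genes above. It had 186 and 154 normalised counts with sgNlrc5 and 247 and 267 with sgScramble, by log2 -0.60 ± 0.13 (limma adjusted p = 0.0016). Ctsb stood at 0.043 ± 0.031 (limma adjusted p = 0.32) and Ctso, at 23.6 and 28.1 with sgNlrc5 and 54.5 and 29.5 with sgScramble, at -0.62 ± 0.33 (limma adjusted p = 0.17). Calls ended when single libraries were left out, with limma adjusted p as follows: Ctsa without sgNlrc5 replicate 1 (0.20) or sgScramble replicate 1 or 2 (0.17 and 0.071), Ctsz without sgNlrc5 replicate 1 (0.12) or sgScramble replicate 1 or 2 (0.069 and 0.11), Ctsd without sgNlrc5 replicate 1 (0.051) or sgScramble replicate 1 (0.094), and Ctsc without sgScramble replicate 2 (0.068). With equal sums Ctsa, Ctsd and Ctsz also lost their calls (0.078, 0.054 and 0.14).

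Within the pump, 5 of 9 V1 genes rose and 2 fell in TDMa culture, beside 17.3% of all genes called higher and 16.9% lower. The 2 lower calls are near that share. Atp6v1d, of the central stalk, had 1705 and 1599 normalised counts with sgNlrc5 and 1349 and 1312 with sgScramble, by log2 0.31 ± 0.051 (limma adjusted p = 9.7e-05). Atp6v1a had 4382 and 4388 with sgNlrc5 and 3684 and 3578 with sgScramble, by 0.27 ± 0.035 (limma adjusted p = 7.7e-06). Atp6v1c1, which holds stator and motor together, had 3341 and 3377 with sgNlrc5 and 2907 and 2784 with sgScramble, by 0.24 ± 0.039 (limma adjusted p = 8.9e-05). None of these 3 genes overlapped between guides. Atp6v1g1 rose by 0.22 ± 0.041 and Atp6v1b2 by 0.15 ± 0.038, while Atp6v1e1 changed by -0.17 ± 0.034 and Atp6v1h by -0.15 ± 0.055 (limma adjusted p = 0.00038, 0.0044, 0.00085 and 0.041). Atp6v1b2 lost its call without sgNlrc5 replicate 1 or sgScramble replicate 2 (limma adjusted p = 0.085 and 0.093) and with quantile normalisation (0.094), and Atp6v1h without sgNlrc5 replicate 1 or sgScramble replicate 1 or 2 (0.29, 0.18 and 0.16). Atp6v1f, at -0.12 ± 0.049 (limma adjusted p = 0.077), passed with equal sums (-0.16, limma adjusted p = 0.014) and with voom (-0.16, limma adjusted p = 0.011).

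In TDMa culture 2 of 9 V0 genes were called higher and 2 lower, shares near the 17.3% higher and 16.9% lower of all genes. Without the pseudogene Atp6v0c-ps2 these were 2 higher and 2 lower of 8. Atp6v0e2 had 1122 and 1062 normalised counts with sgNlrc5 and 1394 and 1418 with sgScramble, by log2 -0.37 ± 0.054 (limma adjusted p = 3.0e-05). Atp6v0b had 1533 and 1411 with sgNlrc5 and 1252 and 1244 with sgScramble, by 0.24 ± 0.054 (limma adjusted p = 0.0021), and Atp6v0c had 4566 and 4587 with sgNlrc5 and 3892 and 3959 with sgScramble, by 0.22 ± 0.034 (limma adjusted p = 5.6e-05). The guides did not overlap in these genes. Atp6v0a1 changed by -0.17 ± 0.046 (limma adjusted p = 0.0087) and lost its call without sgScramble replicate 2 (-0.15, limma adjusted p = 0.088). Atp6ap2 and Atp6ap1 rose by 0.22 ± 0.057 and 0.17 ± 0.046 (limma adjusted p = 0.0060 and 0.0066), with Atp6ap1 losing its call without sgNlrc5 replicate 2 or sgScramble replicate 1 (0.053 and 0.12) and Atp6ap2 without sgNlrc5 replicate 2 or sgScramble replicate 2 (0.051 and 0.11). Lamp2 and Lamp1 rose by 0.17 ± 0.037 and 0.096 ± 0.031 (limma adjusted p = 0.0014 and 0.021). The Lamp1 call ended without any 1 of the 4 libraries (limma adjusted p 0.052 to 0.11), with quantile normalisation (0.62), with equal sums (0.24) and with voom (0.22).

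In cultured TDM cells 0 of 29 members were called by limma, beside 0.517% of all genes, and 0 were called with voom. At an unadjusted p under 0.05 there were 3: Atp6v0c-ps2, with 14.6 and 12.3 normalised counts with sgNlrc5 and 38.8 and 30.8 with sgScramble (log2 -1.30 ± 0.37, limma adjusted p = 0.20), Ctsc, with 188 and 154 with sgNlrc5 and 131 and 115 with sgScramble (0.47 ± 0.16, limma adjusted p = 0.36), and Ctsd, with 3366 and 3246 with sgNlrc5 and 3567 and 3535 with sgScramble (-0.10 ± 0.048, limma adjusted p = 0.54). The other cathepsins stood between -0.066 and 0.090. Median log2 changes were 0.018 for cathepsins, -0.019 for V0 and -0.048 for V1, against 0.00033 for all genes. Lamp1 and Lamp2 stood at 0.082 ± 0.043 and 0.015 ± 0.047, and Atp6ap1 and Atp6ap2 at -0.0096 ± 0.060 and 0.10 ± 0.065.

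**Figure D4:**
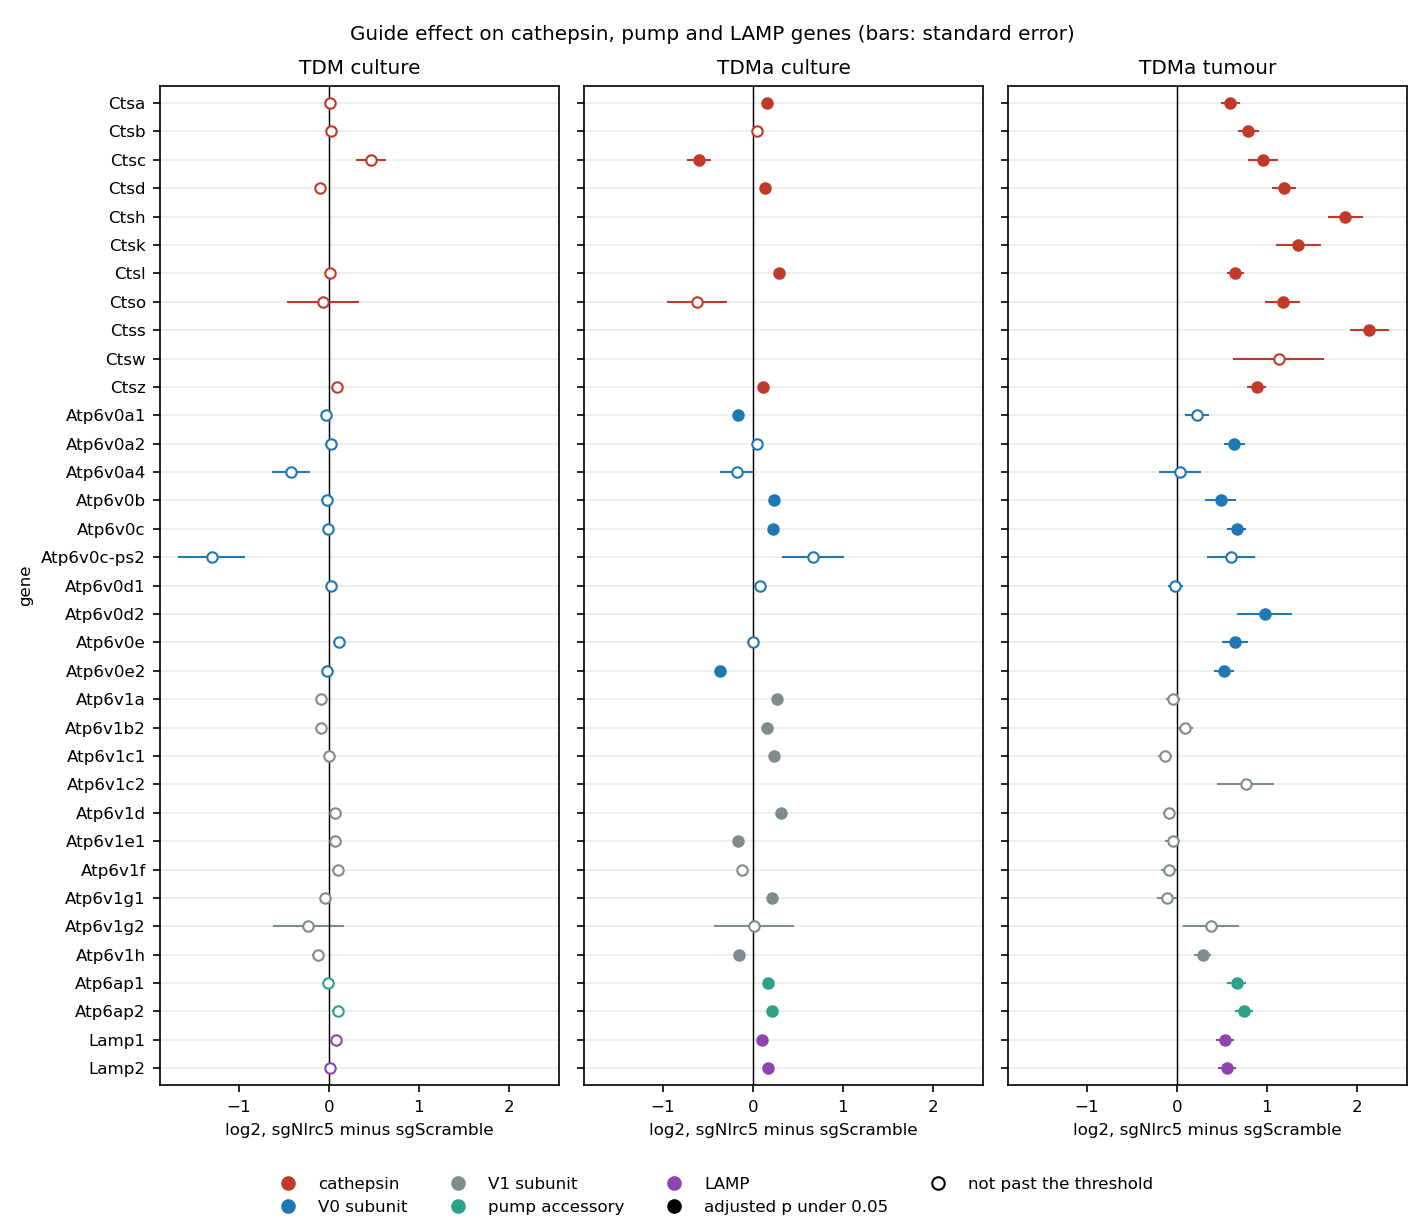
Log2 change, sgNlrc5 minus sgScramble, with standard error bars for every member tested, in TDM culture, TDMa culture and TDMa tumours; filled points have a limma adjusted p under 0.05. TDM culture has no filled point, TDMa culture has 20 small changes in both directions, and in tumours the 21 filled points are all to the right, and the V1 genes lie near 0 apart from Atp6v1h and the low-count Atp6v1c2 and Atp6v1g2.

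The guide effect itself was compared between tumours and culture of the TDMa line, a test that uses the same libraries as both comparisons above. Of 29 members, 17 had a higher effect in tumours and 4 a lower one, beside 15% of all genes with a higher effect and 21.6% with a lower one (limma interaction, adjusted p under 0.05). The median difference was 0.39 for members and -0.068 for all genes. All 7 cathepsins were higher: Ctso by log2 1.80 ± 0.35, Ctsc by 1.56 ± 0.21, Ctsd by 1.05 ± 0.14, Ctsz by 0.77 ± 0.11, Ctsb by 0.75 ± 0.11, Ctsa by 0.43 ± 0.12 and Ctsl by 0.35 ± 0.11 (limma adjusted p from 3.0e-05 to 0.015). Ctsl lost its call without sgScramble culture replicate 1 (0.33, limma adjusted p = 0.058). Ctsc had opposite directions, higher with sgNlrc5 in tumours and lower in culture. In V0, Atp6v0e2 differed most (0.89 ± 0.13), with Atp6v0e at 0.64, Atp6v0a2 at 0.59, Atp6v0c at 0.44 and Atp6v0a1 at 0.39 also called. The Atp6v0a1 difference lost its call without sgNlrc5 tumour replicate 2 (limma adjusted p = 0.059), without sgScramble tumour replicate 1, 2 or 4 (0.077, 0.058 and 0.071), without sgNlrc5 culture replicate 1 or 2 (0.074 and 0.083), without sgScramble culture replicate 1 or 2 (0.074 and 0.10), without the intensity trend (0.087) and without array weights (0.16). Atp6ap2, Atp6ap1, Lamp1 and Lamp2 differed by 0.53, 0.50, 0.44 and 0.39.

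Of 9 V1 genes 4 had a lower effect in tumours and 1 a higher one, beside 21.6% and 15% of all genes. Their median difference was -0.061, near the -0.068 of all genes. Atp6v1d was lower by log2 -0.40 ± 0.089, Atp6v1c1 by -0.37 ± 0.091, Atp6v1g1 by -0.32 ± 0.12 and Atp6v1a by -0.31 ± 0.091, and Atp6v1h was higher by 0.44 ± 0.11 (limma adjusted p = 0.0022, 0.0045, 0.048, 0.013 and 0.0057). The first 4 rose in culture and were not called in tumours. The Atp6v1a difference lost its call without sgScramble culture replicate 2 (limma adjusted p = 0.052). The Atp6v1g1 difference lost its call without sgNlrc5 tumour replicate 3 or 4 (limma adjusted p = 0.079 and 0.11), without sgScramble tumour replicate 2, 3 or 4 (0.088, 0.052 and 0.11) and without any 1 of the 4 culture libraries (0.076 to 0.12). It was also lost with no low-value filter (limma adjusted p = 0.055), quantile normalisation (0.084), equal sums (0.060), no intensity trend (0.092), the replicate block (0.091) and no array weights (0.17).

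**Figure D5:**
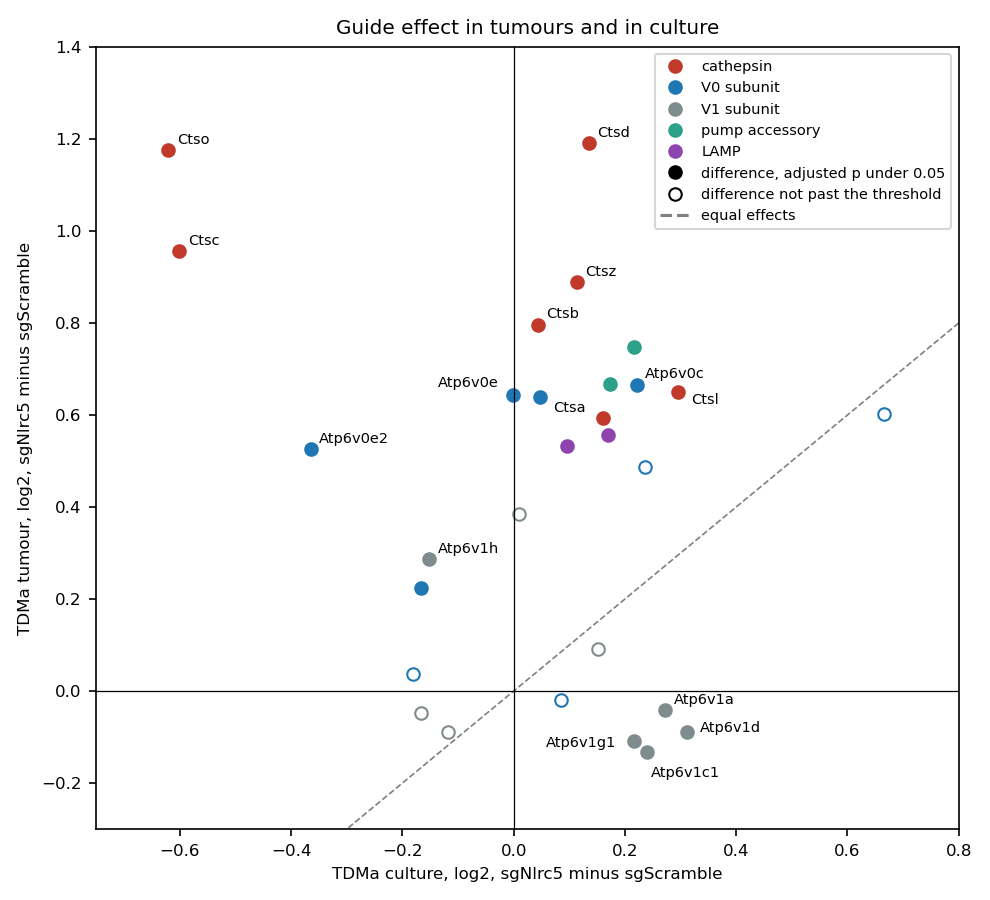
Log2 change, sgNlrc5 minus sgScramble, in TDMa tumours (vertical axis) against TDMa culture (horizontal axis) for the 29 members tested in both, coloured by role; filled points differ between tumour and culture at a limma adjusted p under 0.05 and the dashed line marks equal effects. Cathepsins lie above the line, Ctso and Ctsc farthest to the left, and 4 filled V1 points lie below it.

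Between the culture lines, 10 of 29 members had a higher effect in TDMa than in TDM and 3 a lower one, beside 12% of all genes with a higher effect and 10.8% with a lower one (limma interaction, adjusted p under 0.05). The V1 genes Atp6v1a, Atp6v1g1, Atp6v1d, Atp6v1b2 and Atp6v1c1 were higher by log2 0.36, 0.26, 0.25, 0.24 and 0.24, and Atp6v1e1 was lower by -0.23. Among cathepsins Ctsl was higher by 0.28 ± 0.065, Ctsd by 0.24 ± 0.058, and Ctsc lower by -1.07 ± 0.21. In V0, Atp6v0b and Atp6v0c were higher by 0.26 and 0.24, Atp6v0e2 was lower by -0.35, and Atp6v0c-ps2, at under 40 normalised counts in every culture library, was higher by 1.97 ± 0.53. Without the intensity trend 9 of these 13 calls ended, and the other 4, of Atp6v1a, Atp6v0e2, Ctsc and Atp6v0c-ps2, held. Atp6v0b and Atp6v1d also lost their calls when single libraries were left out, Atp6v0b in 6 of 8 cases (limma adjusted p 0.066 to 0.14) and Atp6v1d in 5 of 8 (0.074 to 0.11), and Atp6v0c-ps2 and Atp6v1e1 without sgScramble TDM replicate 1 (0.059 and 0.11). The calls of Atp6v0b and Atp6v1d also ended with equal sums (limma adjusted p = 0.070 and 0.057) and with voom (0.079 and 0.054). Atp6v1f, not called, passed with quantile normalisation (-0.24, limma adjusted p = 0.0498), equal sums (-0.25, 0.028), voom (-0.25, 0.030) and without sgNlrc5 TDM replicate 2 (-0.29, 0.0085). Atp6ap1 passed without sgNlrc5 TDM replicate 2 (0.26, limma adjusted p = 0.0092) and Lamp2 without sgNlrc5 TDM replicate 1 (0.17, limma adjusted p = 0.041).

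Other lysosomal genes were counted from lists of related genes, to be read beside the 19.7% of all genes called higher and 19.7% called lower in tumours. In tumours 28 of 38 lysosomal hydrolases rose and 0 fell, with a median log2 change of 0.46, among them Hgsnat (1.39 ± 0.14), Fuca1 (1.06 ± 0.11) and Lgmn (0.84 ± 0.091), with limma adjusted p of 4.2e-05 to 5.9e-05. Of 25 lysosomal membrane and activator genes 19 rose and 1 fell, among them Psap (1.27 ± 0.11), the precursor of sphingolipid activators, Laptm5 (1.83 ± 0.17), a gene of blood cells, Clcn7 (0.91 ± 0.093), the lysosomal chloride exchanger, and Gm2a (0.73 ± 0.088). Of 16 sorting genes 1 rose, Sort1 (0.62 ± 0.11), and 3 fell, Vps35 (-0.42 ± 0.099), Ap3b1 (-0.38 ± 0.13) and Gga3 (-0.32 ± 0.12). The pump assembly list had 4 higher and 3 lower of 13, with Tcirg1 given above, Vma21 at 0.41 ± 0.096 and the RAVE-related genes Wdr7 and Dmxl1 at -0.51 ± 0.11 and -0.48 ± 0.12. The lower calls of the sorting list, and the calls of the assembly list, are near the shares of all genes. Of 8 ragulator and mTORC1 genes Lamtor5 alone was called (-0.36 ± 0.11). The list named cathepsin inhibitors, which also holds serpins and Cd74, had 5 of 9 higher. It was led by Cst3 (1.28 ± 0.12), which encodes cystatin C, Cd74 (2.95 ± 0.41), Serpina3g (2.84 ± 0.43) and Serpinb9 (1.01 ± 0.18). Whether each gene of that list acts on cathepsins was not examined. Class II processing, which counts Cd74 again, had 7 of 8 higher, with H2-DMb1 at 1.68 ± 0.20, H2-Eb1 at 2.98 ± 0.40 and H2-Ab1 at 2.67 ± 0.38. Class II genes are made mainly by antigen-presenting cells, and the part of the macrophage marker change in these lists was not tested.

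In TDMa culture the same lists had calls in both directions, where 17.3% of all genes were called higher and 16.9% lower, and several of the counts lie near those shares. Hydrolases had 9 higher and 5 lower of 37, with Hgsnat at 0.32 ± 0.028, Neu1, the neuraminidase partner of Ctsa, at 0.52 ± 0.057, Asah1 at 0.21 ± 0.043 and Aga at -0.36 ± 0.070. Membrane and activator genes had 6 higher and 5 lower of 22, with Gm2a at -0.47, Mcoln2 at -0.66, Slc29a3 at -0.44 and Tpcn1 at 0.30. Sorting genes had 6 higher and 2 lower of 16, with Sort1 at 0.51, Gga2 at 0.44, Ap3b1 at 0.26 and Ap1b1 at -0.22. In pump assembly 2 of 13 rose, Dmxl2 (1.25 ± 0.037) and Dmxl1 (0.21 ± 0.060), and 0 fell, and of 8 ragulator and mTORC1 genes 2 rose and 2 fell. The list named cathepsin inhibitors had 1 higher and 3 lower of 5, with Cst3 at -0.57 ± 0.040, and class II processing 1 higher and 1 lower of 3. In TDM culture 0 genes of these 8 lists were called.

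The counts below stand beside 17.3% of all genes called higher and 16.9% lower in TDMa culture, and 19.7% each way in tumours. Among the MiT/TFE factors, Mitf and Tfeb rose in TDMa culture. There 5 of 11 genes of that list rose and 2 fell: Mitf averaged 5782 ± 60.2 normalised counts with sgNlrc5 and 4344 ± 107 with sgScramble (SD, n = 2 each), by log2 0.41 ± 0.034 (limma adjusted p = 2.2e-08), and Tfeb 363 ± 65.4 with sgNlrc5 and 258 ± 13.1 with sgScramble, by 0.48 ± 0.12 (limma adjusted p = 0.0043). Rragd, a lysosomal GTPase gene, and Gpnmb rose by 0.88 and 0.24, and Sqstm1, the autophagy receptor p62, changed by -0.49. The 2 lower calls of the list are near the share of all genes. In tumours 1 of 12 rose, Tfe3 (0.25 ± 0.088, limma adjusted p = 0.041), while Mitf stood at -0.0080 ± 0.099, with 6390 ± 684 normalised counts in sgNlrc5 tumours and 6408 ± 450.2 in sgScramble tumours (SD, n = 4 each), and Tfeb at 0.24 ± 0.10 (limma adjusted p = 0.082). The 1 call of the list in tumours is below the share of all genes called higher. Melanocyte markers rose in 10 of 12 in TDMa culture with 0 lower, and in tumours 7 of 12 were higher and 1 lower. Their summed level was 653225 to 1040710 normalised counts in sgNlrc5 tumours and 601131 to 675130 in sgScramble tumours, with overlap between guides, and the part of pigment genes in the pump values was not tested.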

How the data were processed

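RNA sequencing of 16 libraries was analysed from 3 tables, 1 each for cultured TDM cells, cultured TDMa cells and TDMa tumours. Per the labels, the deposited values are log2 of a normalised count plus 1, made by the authors with DESeq2 within each table, from total RNA and a directional library kit. Per the submitters' processing notes the genome builds were GRCm39 and mm39 and the tools DESeq2 1.36.0, STAR 2.7.10a and FastQC 0.12.0, with no roles stated. The annotation, the read counter and whether it used strand are not given in the sources used here. Whole reads were recovered from the steps of the values, 100% of the low values checked being whole within 0.1. Higher values were rounded to whole reads without this check. The recovered reads come to 12183889 to 16390886 per library. Intervals were not computed.

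Each table was fitted alone with limma 3.58.1 in R 4.3.3 (2 sgNlrc5 and 2 sgScramble libraries in culture, 4 and 4 in tumours) on log2(normalised count + 1). A fold change on that scale understates the change of low genes. The fits used an intensity trend, two-sided tests and Benjamini-Hochberg adjustment at 0.05 over all genes with a mean of at least 10: 11989 genes in TDM culture, 12138 in TDMa culture and 13385 in TDMa tumours. Differences of guide effects were interaction terms with array weights by table, over 11782 genes (tumour and culture) and 11492 genes (TDMa and TDM). Levels were not tested across tables, since each was normalised alone. The fitting code was tested on simulated data. All cathepsins, Lamp and accessory genes, called pump genes, and, from each other list, up to 4 genes ranked by p were named. Of these, 1 gene that this rule names is not reported here. Tcirg1, Mitf, Tfeb and Tyr were chosen after their values were seen wherever that rule did not name them. Members and lists were chosen with earlier results of these data known. Alternatives were pseudocounts of 0.5 and 4, no low-value filter or one at 50, quantile normalisation, equal sums, no trend, voom on the recovered reads, a replicate block, no array weights, and each library left out. Leaving out tumour libraries in pairs was added after seeing the data.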

Additional observations from a re-analysis of the deposited data

Results flagged for a closer look

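In 70 groups of 4 tumour libraries, 1 per member and guide, 2 had a library far from the others by Dixon's criterion, which chance exceeds in about 1 of 20 groups. Ctsl had 9999 normalised counts in sgNlrc5 tumour replicate 2, against 8128 to 8356 in the other sgNlrc5 libraries. Ctss had 1823 in sgScramble tumour replicate 4, against 974 to 988 in the other sgScramble libraries. That library also had the highest macrophage marker sum of its group, 7509. The Ctsl library had a macrophage marker sum of 18647.5, within the range of the other sgNlrc5 tumour libraries. The part of these sums in the 2 values was not tested.

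The guide effect differed between TDMa tumours and TDMa culture in 21 members by the limma interaction test. The differences, tumour minus culture on the log2 scale, were 1.80 for Ctso, 1.56 for Ctsc, 1.05 for Ctsd, 0.77 for Ctsz, 0.75 for Ctsb, 0.43 for Ctsa and 0.35 for Ctsl. They were 0.89 for Atp6v0e2, 0.64 for Atp6v0e, 0.59 for Atp6v0a2, 0.44 for Atp6v0c, 0.39 for Atp6v0a1, 0.53 for Atp6ap2, 0.50 for Atp6ap1, 0.44 for Lamp1 and 0.39 for Lamp2. In V1 they were 0.44 for Atp6v1h, -0.31 for Atp6v1a, -0.37 for Atp6v1c1, -0.40 for Atp6v1d and -0.32 for Atp6v1g1.

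Between TDMa and TDM culture it differed in 13 members. The differences, TDMa minus TDM, were -1.07 for Ctsc, 0.24 for Ctsd, 0.28 for Ctsl, 0.26 for Atp6v0b, 0.24 for Atp6v0c, 1.97 for Atp6v0c-ps2 and -0.35 for Atp6v0e2. In V1 they were 0.36 for Atp6v1a, 0.24 for Atp6v1b2, 0.24 for Atp6v1c1, 0.25 for Atp6v1d, -0.23 for Atp6v1e1 and 0.26 for Atp6v1g1.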

How the results depend on the processing

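In TDMa tumours 10 or 11 cathepsins and 6 to 10 V0 and accessory genes were called under every setting tried, and 18 of the 21 member calls were never lost. The 1 V1 call (Atp6v1h) became 0 without the intensity trend, with the replicate block, and with sgNlrc5 libraries 3 and 4 left out, and 0 to 1 with single libraries left out. In TDMa culture the 5 called cathepsins became 3 with quantile normalisation, 2 with equal sums, 0 without the trend, 3 with voom, and 2 to 5 with single libraries left out. Without the trend the 6 V0 and accessory calls became 2 and the 7 V1 calls 0. Those 2 were Atp6v0e2, which kept its call, and the pseudogene Atp6v0c-ps2, which gained one (0.67, limma adjusted p = 0.021). For tumour minus culture, the 5 V1 calls became 3 without array weights and 3 to 5 with single libraries left out. For TDMa minus TDM, without the trend 3 cathepsin calls became 1, 4 V0 and accessory calls 2, and 6 V1 calls 1, and the V0 and accessory calls were 2 to 5 with single libraries left out. No called value changed sign under these settings, and why calls ended was not tested.

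Without array weights the tumour minus culture calls of Ctsa, Ctsl, Lamp2, Atp6v1a, Atp6v0a1 and Atp6v1g1 ended (limma adjusted p = 0.057, 0.078, 0.059, 0.067, 0.16 and 0.17). Without the trend, calls over all genes went to 722 higher and 859 lower in TDMa culture (2100 and 2056 with it), 1 and 1 in TDM culture (34 and 28), and 586 and 600 for TDMa minus TDM (1374 and 1236). Without array weights, tumour minus culture had 1204 higher and 1595 lower (1771 and 2540 with them). Same-numbered libraries did not deviate together, with correlations of -0.024 in TDM culture, -0.015 in TDMa culture and -0.21, 0.11, -0.18 and -0.017 in tumours, so the numbers were not taken as pairs. With the replicate block Atp6v0b and Atp6v1h lost their tumour calls (limma adjusted p = 0.069 and 0.060), and 62 higher and 60 lower genes were called in TDM culture. With 2 libraries per guide, small culture effects rest on few values, and members below a mean of 10 were not tested.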
